A study of Mus musculus with 8 samples.

Results

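*Pparg* and 9 genes of its circle (*Rxra*, *Cd36*, *Fabp4*, *Fabp5*, *Plin2*, *Angptl4*, *Lpl*, *Cpt1a* and *Pdk4*) were followed in liver sinusoidal endothelial cells, the pore-bearing endothelium of the liver's capillary bed. The set was chosen by the rise of *Pparg* after iron, a value of the same contrast that is described here. The other genes were added as its partner and as textbook targets, with results of these data already known. Of the 10 genes, 9 had a target among the 23930 RefSeq targets of the assay, and *Fabp5* was not analysed here. All 9 passed the filter on low counts, as did 14601 targets in all.

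The treated group was 4 wild-type young female Balb/c mice that received 150 µg of iron citrate into a vein. The control group was 4 such mice that received 0.05 M citrate buffer. Cells were sorted 5 h later as CD45-dim, STAB2-high and CD146-high, and each library is labelled as 1 mouse. The transcriptome was read through an amplicon panel (Ion AmpliSeq) with, as a rule, 1 short amplicon per gene, so CPM does not rank genes by abundance. Where genes are named below for the highest CPM of their list, this is a naming rule and no comparison of levels.

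PPARG is a nuclear receptor that binds fatty acids and their derivatives. Together with its partner RXR it binds direct repeats of the half-site AGGTCA with 1 base between them (DR1) and switches on genes that take up, carry, store and burn fatty acids. It is best known from fat cells and macrophages, and endothelial cells of many organs use it too, with *Cd36* and *Fabp4* among its targets there. Its sister receptors PPARA and PPARD share many of these targets.

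Counts on targets lay between 7969520 and 11314659 per library. Citrate buffer replicate 1 stood apart, with a median correlation to its own group of 0.84, against 0.96 to 0.98 for the other libraries. It also held the lowest value of all 8 libraries for 6 of the 9 measured members, which it did for 36.6% of all tested targets. Results are therefore also given without it. Markers of sinusoidal endothelium were read in every library. *Clec4g*, a lectin of sinusoidal endothelium, averaged 10022 ± 966 CPM (counts scaled to library size with TMM factors) after iron citrate and 9476 ± 1996 CPM after citrate buffer (SD, n = 4 each), and *Ehd3*, an endocytic ATPase of these cells, averaged 5345 ± 805 and 5132 ± 1085 CPM. Of the sort antigens, *Stab2* averaged 977 ± 131 CPM after iron citrate and 1086 ± 154 CPM after citrate buffer (edgeR adjusted p = 0.617), and *Mcam*, which encodes CD146, averaged 179 ± 11.3 and 253 ± 34.8 CPM (edgeR adjusted p = 0.239). *Mcam* was called lower by DESeq2 (log2 fold change -0.52, adjusted p = 0.00279), by limma-voom (-0.59, adjusted p = 0.00813) and by edgeR without citrate buffer replicate 1 (-0.59, adjusted p = 0.0135). With library totals or upper-quartile factors in place of TMM, edgeR called it lower in all 8 libraries (adjusted p = 0.0452 and 0.0464). The part of this in the members' values was not tested.

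*Pparg* was higher in every iron citrate library than in any citrate buffer library. It stood at 37.4, 39.9, 34.35 and 33.6 CPM in iron citrate replicates 1 to 4, against 8.57, 10.5, 8.02 and 13.5 CPM in citrate buffer replicates 1 to 4. The means were 36.3 ± 2.88 CPM after iron citrate and 10.2 ± 2.48 CPM after citrate buffer (SD, n = 4 each). The fitted difference was 3.59-fold, or 1.84 on the log2 scale (SE 0.20, 95% interval 1.40 to 2.28). Behind these values were 383, 346, 327 and 366 reads after iron citrate and 90, 126, 90 and 102 reads after citrate buffer. Without citrate buffer replicate 1 the log2 fold change was 1.78 (SE 0.18). Because this contrast chose the gene, the difference is a description and no p is given for it. In bulk RNA, more cells with the transcript and more transcript per cell cannot be told apart.

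The single amplicon for *Pparg* did not show which of the gene's transcription starts was used. RefSeq (build GRCm38.p6) places 3 starts in the promoter table, all on the plus strand of chromosome 6. Both upstream promoters are shown because the set was chosen by this gene, with the motifs searched in capitals. Each window runs from 250 bases before the start to 50 bases after it.
*Pparg* first start, chr6:115360894-115361193: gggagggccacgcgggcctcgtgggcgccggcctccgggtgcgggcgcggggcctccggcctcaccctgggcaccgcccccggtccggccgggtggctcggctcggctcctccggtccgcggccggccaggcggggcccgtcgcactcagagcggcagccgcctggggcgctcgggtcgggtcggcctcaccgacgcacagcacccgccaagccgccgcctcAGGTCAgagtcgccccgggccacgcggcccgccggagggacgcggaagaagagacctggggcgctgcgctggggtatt
*Pparg* second start, chr6:115362099-115362398: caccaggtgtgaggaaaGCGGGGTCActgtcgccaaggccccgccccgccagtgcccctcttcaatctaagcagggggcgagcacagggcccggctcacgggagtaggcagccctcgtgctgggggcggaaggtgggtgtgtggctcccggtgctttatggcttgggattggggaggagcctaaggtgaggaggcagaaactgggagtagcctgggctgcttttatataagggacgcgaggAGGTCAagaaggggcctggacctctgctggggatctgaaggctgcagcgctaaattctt

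Both strands were searched for the half-site AGGTCA, for DR1 and for TGACNNNGC, the core of the antioxidant response element to which NRF2 binds. The reverse complement of AGGTCA shares the letters TGAC with that core. The half-site began 28 bases before the first start and 9 bases before the second, both on the plus strand. The NRF2 core began 233 bases before the second start, on the minus strand (the first capital run in that sequence). The third promoter, at chr6:115421816-115422115, held none of these motifs. Across 32851 mouse promoters of the same length, 16.3% held the half-site, 12.4% the NRF2 core and 0.0396% a DR1. RefSeq promoters were matched for 6 members, with 9 starts among them, and none held a DR1. The half-site was also present at 1 start each of *Rxra*, *Plin2*, *Cd36* and *Cpt1a*. These are matches of letters in a short window and not shown binding sites.

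Against this rise, none of the 8 other measured members passed the test. A gene not called, here or in the lists below, is not thereby shown to be unchanged. The 95% interval of *Pdk4*, for 1, reached up to 2.85-fold. With edgeR's quasi-likelihood test across all 14601 targets and Benjamini-Hochberg adjustment, 1 of 9 members was called at an adjusted p under 0.05, and this was *Pparg*. The background was 0.555% of all targets called. At an unadjusted p under 0.05 there were 3 members (*Pparg*, *Cpt1a* and *Pdk4*), against 14.6% of all targets. Groups that did not overlap were seen in 1 of 9 members and in 8.64% of all targets. The count was again 1 of 9, *Pparg*, with DESeq2 (2.41% of all targets called) and without citrate buffer replicate 1 (1.76%). Since the contrast was used to choose the set, nothing is read from these shares, and the adjusted p-values below say only which members passed. Among the 8, 6 had a log2 fold change above 0 and 2 below 0, with a median of 0.37 beside -0.01 for all tested targets. The median was 0.21 without citrate buffer replicate 1 and 0.05 without citrate buffer replicates 1 and 2. Replicate 2 did not stand apart from its group (median correlation 0.96). Citrate buffer replicates 1 and 2 held the lowest buffer values of *Rxra*, *Fabp4*, *Plin2*, *Angptl4*, *Lpl*, *Cpt1a* and *Pdk4*. Leaving both out therefore lowers these log2 fold changes, and nothing is read from that fit, here or below. In that last fit *Pdk4* and *Cpt1a* were at 0.48 and 0.39, and *Lpl*, *Plin2* and *Rxra* between 0.01 and 0.16. *Cd36*, *Fabp4* and *Angptl4* were below 0 there. With all libraries kept, the upper bound of the 95% interval lay below the *Pparg* log2 fold change of 1.84 in all 8 members. In 6 it lay below the lower bound of the *Pparg* interval. *Pparg* was chosen for its rise and 99.7% of all tested targets had a smaller log2 fold change, so nothing is read from these counts. The difference between *Pparg* and each of the 8 members was not itself tested.

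**Figure D1:**
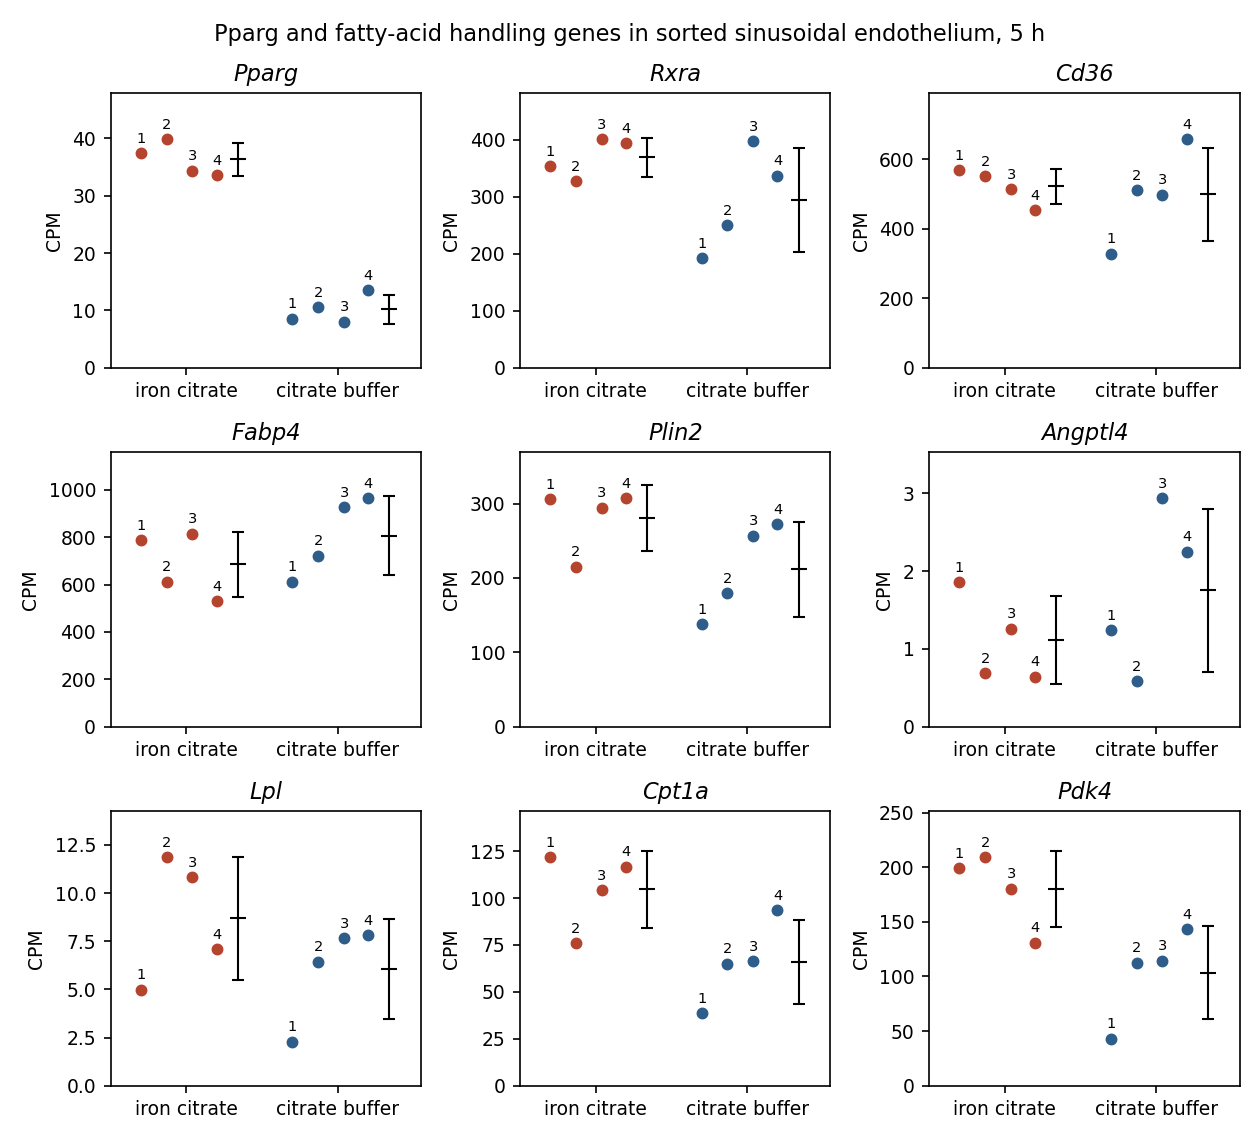
CPM (TMM-scaled, axis from 0) of the 9 measured members in each library, iron citrate left and citrate buffer right. Points are libraries numbered by replicate, and the bar beside them is the mean with its SD (n = 4). The groups are apart for *Pparg*, between 33.6 and 39.9 CPM after iron citrate and between 8.02 and 13.5 CPM after citrate buffer, and overlap in the other 8 panels.

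**Figure D2:**
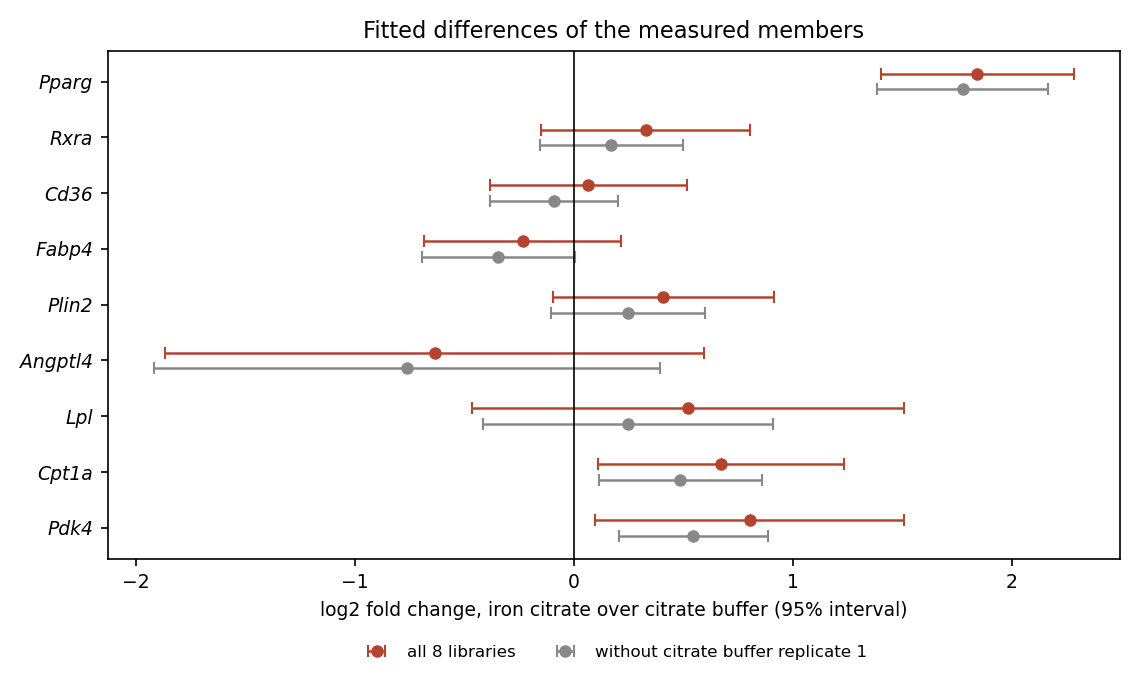
Log2 fold change (iron citrate over citrate buffer) and 95% interval of each measured member from the edgeR fit, in all 8 libraries (red) and without citrate buffer replicate 1 (grey). *Pparg* stands at 1.84, and the other 8 lie between -0.64 and 0.80.

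The partner receptor and the sister receptors came next. *Rxra* encodes RXR alpha, with which PPARG pairs on DNA. It stood at 353, 327, 401 and 394 CPM in iron citrate replicates 1 to 4, against 192, 250, 397 and 337 CPM in citrate buffer replicates 1 to 4. The groups overlapped, with citrate buffer replicates 1 and 2 below all other libraries (log2 fold change 0.33, SE 0.21, adjusted p = 0.409). The value was 0.17 without citrate buffer replicate 1, and without citrate buffer replicates 1 and 2 it was 0.01.

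Of 20 other nuclear receptors and coregulators of this system, all tested, none was called by edgeR. At an unadjusted p under 0.05, 2 were higher and 1 lower, and the list's median log2 fold change was 0.14. By the naming rule, the coactivator *Ncoa3* was at 360 ± 36.5 CPM after iron citrate and 326 ± 51.2 CPM after citrate buffer, and the corepressor *Ncor1* was at 268 ± 35.1 and 266 ± 73.9 CPM. *Ncoa2*, a p160 coactivator of nuclear receptors, is named because it had the lowest p in this list. It averaged 152 ± 12.9 CPM after iron citrate and 102 ± 13.8 CPM after citrate buffer, and the groups did not overlap (log2 fold change 0.58, SE 0.14, adjusted p = 0.147). DESeq2 and limma-voom called it, with adjusted p-values of 0.00543 and 0.0219, and no other gene of this list.

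The sister receptors, also named after their values were seen, did not pass either. *Ppard*, the widely expressed PPAR delta, was at 68.1, 72.7, 72.2 and 71.8 CPM after iron citrate and 50.5, 67.6, 50.05 and 55.9 CPM after citrate buffer. Its groups did not overlap (log2 fold change 0.35, SE 0.13, adjusted p = 0.333). *Ppara*, the PPAR of fat-burning hepatocytes, was at 4.89, 6.22, 5.36 and 6.98 CPM after iron citrate and 23.6, 10.6, 8.37 and 6.36 CPM after citrate buffer (log2 fold change -1.06, SE 0.42, adjusted p = 0.333). Its highest value was in citrate buffer replicate 1, and without that library the log2 fold change was -0.53.

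Uptake of fatty acids was represented by *Cd36*, *Fabp4*, *Lpl* and *Angptl4*. *Cd36* encodes the scavenger receptor that takes up fatty acids and oxidised lipoproteins. It stood at 569, 551, 514 and 454 CPM after iron citrate and at 328, 511, 497 and 657 CPM after citrate buffer. The buffer group held both the lowest and the highest library, and the log2 fold change was 0.07 (SE 0.20, 95% interval -0.38 to 0.51, adjusted p = 0.88). Its sign turned with the scaling, to -0.02 with library totals and -0.03 with upper-quartile factors, and to -0.09 without citrate buffer replicate 1.

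*Fabp4* encodes the fatty acid chaperone of fat cells and of capillary endothelium, and is a standard readout of PPARG activity in both. It stood at 788, 612, 814 and 529 CPM after iron citrate and at 613, 721, 927 and 964 CPM after citrate buffer. The ranges overlapped, and the fitted difference was on the lower side (log2 fold change -0.23, SE 0.20, 95% interval -0.68 to 0.22, adjusted p = 0.535). The interval's upper bound corresponds to 1.16-fold. Without citrate buffer replicate 1 the log2 fold change was -0.35, with an interval of -0.70 to 0.004.

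Lipoprotein lipase and its inhibitor rested on few reads. *Lpl* encodes the enzyme that frees fatty acids from circulating triglyceride, made mainly by fat, muscle and macrophages. It had 4.99, 11.9, 10.8 and 7.07 CPM after iron citrate and 2.29, 6.43, 7.66 and 7.82 CPM after citrate buffer, from 24 to 103 reads per library. The groups overlapped (log2 fold change 0.52, SE 0.44, adjusted p = 0.526). *Angptl4* encodes a secreted inhibitor of this lipase and is among the most responsive PPAR targets in many tissues. It had 19, 6, 12 and 7 reads after iron citrate and 13, 7, 33 and 17 reads after citrate buffer. These correspond to 1.11 ± 0.57 CPM and 1.75 ± 1.05 CPM (SD, n = 4 each; log2 fold change -0.64, SE 0.55, adjusted p = 0.538). At this depth its 95% interval, -1.87 to 0.59, spans 0.27-fold to 1.51-fold.

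Of 35 other genes of fatty acid uptake and lipoprotein handling with a target, 27 were tested and none was called by edgeR. At an unadjusted p under 0.05, 1 was higher and 0 lower, and the median log2 fold change was -0.05. *Gpihbp1*, which anchors lipoprotein lipase on capillary endothelium, stood at 720, 746, 1050 and 749 CPM after iron citrate and at 570, 968, 1377 and 1495 CPM after citrate buffer (log2 fold change -0.43, SE 0.28, adjusted p = 0.407). It was called lower by limma-voom (-0.71, adjusted p = 0.041) and in the edgeR fit that left out citrate buffer replicates 1 and 2 (-0.82, adjusted p = 0.00523), but not by DESeq2. Those left-out libraries held its lowest buffer values. *Nrp1*, a coreceptor for VEGF, averaged 913 ± 95.04 CPM after iron citrate and 819 ± 234 CPM after citrate buffer. *Vegfb*, a growth factor tied to endothelial fatty acid transport in mice, had the lowest p of this list, at 51.5 ± 8.28 and 36.1 ± 6.06 CPM (log2 fold change 0.52, SE 0.17, adjusted p = 0.333).

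Storage in lipid droplets was represented by *Plin2*, the droplet coat protein of most cells outside fat. It stood at 306, 215, 295 and 307 CPM after iron citrate and at 138, 179, 257 and 273 CPM after citrate buffer. Of the iron citrate libraries, 3 lay above every buffer library, and replicate 2 lay within the buffer range (log2 fold change 0.41, SE 0.23, adjusted p = 0.349). The value was 0.25 without citrate buffer replicate 1, and without citrate buffer replicates 1 and 2 it was 0.08.

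Of 18 other droplet and lipolysis genes with a target, 14 were tested and none was called by edgeR, DESeq2 or limma-voom. At an unadjusted p under 0.05, 1 was higher and 1 lower, and the median log2 fold change was -0.02. By the naming rule, *Pnpla2*, the triglyceride lipase ATGL, was at 187 ± 35.6 CPM after iron citrate and 139 ± 43.2 CPM after citrate buffer (adjusted p = 0.345), and its coactivator *Abhd5* was at 66.7 ± 6.15 and 50.2 ± 11.3 CPM (adjusted p = 0.333). *Cidec*, a droplet fusion protein of fat cells and a PPARG target there, stood at 11.6, 9.68, 8.30 and 12.8 CPM after iron citrate and at 47.6, 18.1, 16.7 and 10.5 CPM after citrate buffer. Its highest value was again in citrate buffer replicate 1 (log2 fold change -1.13, SE 0.43, adjusted p = 0.333, and -0.52 without that library).

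The switches toward fat burning lay nearest to *Pparg* among the other members. *Pdk4* encodes the kinase that closes pyruvate dehydrogenase and so spares glucose for fat oxidation. It stood at 199, 209, 180 and 131 CPM after iron citrate and at 43.0, 112, 114 and 143 CPM after citrate buffer. Of the iron citrate libraries, 3 lay above every buffer library, and replicate 4 lay below citrate buffer replicate 4. The log2 fold change was 0.80 (SE 0.32, 95% interval 0.10 to 1.51, unadjusted p = 0.03, adjusted p = 0.333), and 97.4% of all tested targets had a smaller one. Without citrate buffer replicate 1, whose value was less than any other, it was 0.55 with an SE of 0.16 (adjusted p = 0.122). Without citrate buffer replicates 1 and 2 the log2 fold change was 0.48 (95% interval 0.12 to 0.84, edgeR adjusted p = 0.2).

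*Cpt1a* encodes the gate through which long-chain fatty acids enter mitochondria. It stood at 122, 75.9, 104 and 117 CPM after iron citrate and at 38.7, 65.0, 66.3 and 93.4 CPM after citrate buffer. Iron citrate replicates 1, 3 and 4 lay above every buffer library, and replicate 2 did not. The log2 fold change was 0.67 (SE 0.25, 95% interval 0.11 to 1.23, unadjusted p = 0.0242, adjusted p = 0.333), and 0.49 with an SE of 0.17 without citrate buffer replicate 1 (adjusted p = 0.222). Without citrate buffer replicates 1 and 2 it was 0.39 (95% interval 0.004 to 0.78, edgeR adjusted p = 0.381).

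The enzymes beyond these gates did not pass. Of 22 other fatty acid oxidation genes with a target, 21 were tested, none was called by edgeR, DESeq2 or limma-voom, and none had an unadjusted p under 0.05. Their median log2 fold change was 0.02. *Ucp2*, a mitochondrial carrier and PPAR target, averaged 2298 ± 336 CPM after iron citrate and 2066 ± 331 CPM after citrate buffer (adjusted p = 0.653), and *Etfa*, which passes electrons from the acyl-CoA dehydrogenases, averaged 92.9 ± 7.26 and 100.7 ± 11.03 CPM (adjusted p = 0.632). Around pyruvate dehydrogenase, 11 genes other than *Pdk4* were tested and none was called by edgeR, DESeq2 or limma-voom. At an unadjusted p under 0.05, none was higher and 1 lower. That was *Pdk2*, the sister kinase of *Pdk4*, at 50.7 ± 4.63 CPM after iron citrate and 66.9 ± 13.1 CPM after citrate buffer (log2 fold change -0.40, SE 0.16, adjusted p = 0.333). It was called lower without citrate buffer replicate 1 (-0.53, edgeR adjusted p = 0.0409). The subunits *Pdha1* and *Dld* averaged 250 ± 12.7 and 145 ± 7.81 CPM after iron citrate, against 215 ± 7.84 and 139 ± 11.4 CPM after citrate buffer (adjusted p = 0.333 and 0.793).

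Fatty acid synthesis, the opposite route, held the gene with the lowest p of all 7 lists. Of its 19 tested genes none was called by edgeR, while 3 were higher and 2 lower at an unadjusted p under 0.05. *Me1*, malic enzyme, makes NADPH for lipid synthesis and is also a known target of NRF2. It stood at 54.55, 62.1, 54.4 and 61.2 CPM after iron citrate and at 40.7, 18.1, 15.1 and 16.2 CPM after citrate buffer. The groups did not overlap, and citrate buffer replicate 1 was far above its own group (log2 fold change 1.36, SE 0.30, adjusted p = 0.129). It rose without that library (log2 fold change 1.81, SE 0.14, edgeR adjusted p = 1.49e-06), and DESeq2 and limma-voom called it in all 8 libraries (adjusted p = 0.00414 and 1.32e-05). By the naming rule, *Mlxip*, a glucose-sensing transcription factor, was at 853 ± 125 CPM after iron citrate and 556 ± 223 CPM after citrate buffer (adjusted p = 0.333), and the elongase *Elovl5* was at 186 ± 3.92 and 182 ± 38.0 CPM (adjusted p = 0.925).

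A list of 36 other PPAR target genes gave the same count. It had 32 genes with a target and 21 tested ones, of which none was called by edgeR, 1 was higher and 2 were lower at an unadjusted p under 0.05. The median log2 fold change was 0.15. DESeq2 called none and limma-voom 1, *Gpihbp1*, which was lower. The adiponectin gene *Adipoq*, the classic PPARG target of fat cells, was below 1 CPM in every library. It was among 9 of the 32 that were so low, with *Fgf21* and *Plin1*.

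Over the 7 lists together, 119 different genes were tested besides the members. None was called by edgeR, and 14 (11.8%) had an unadjusted p under 0.05, 8 of them higher and 6 lower, beside the 14.6% of all targets. DESeq2 called 2, *Ncoa2* and *Me1*, and limma-voom called 3, the same pair and *Gpihbp1*. The upper bound of the 95% interval lay below the *Pparg* log2 fold change in 116 of the 119. *Pparg* was chosen for its rise and 99.7% of all tested targets had a smaller log2 fold change, so nothing is read from this count. The lists were chosen with earlier results of these data known and share some genes.

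**Figure D3:**
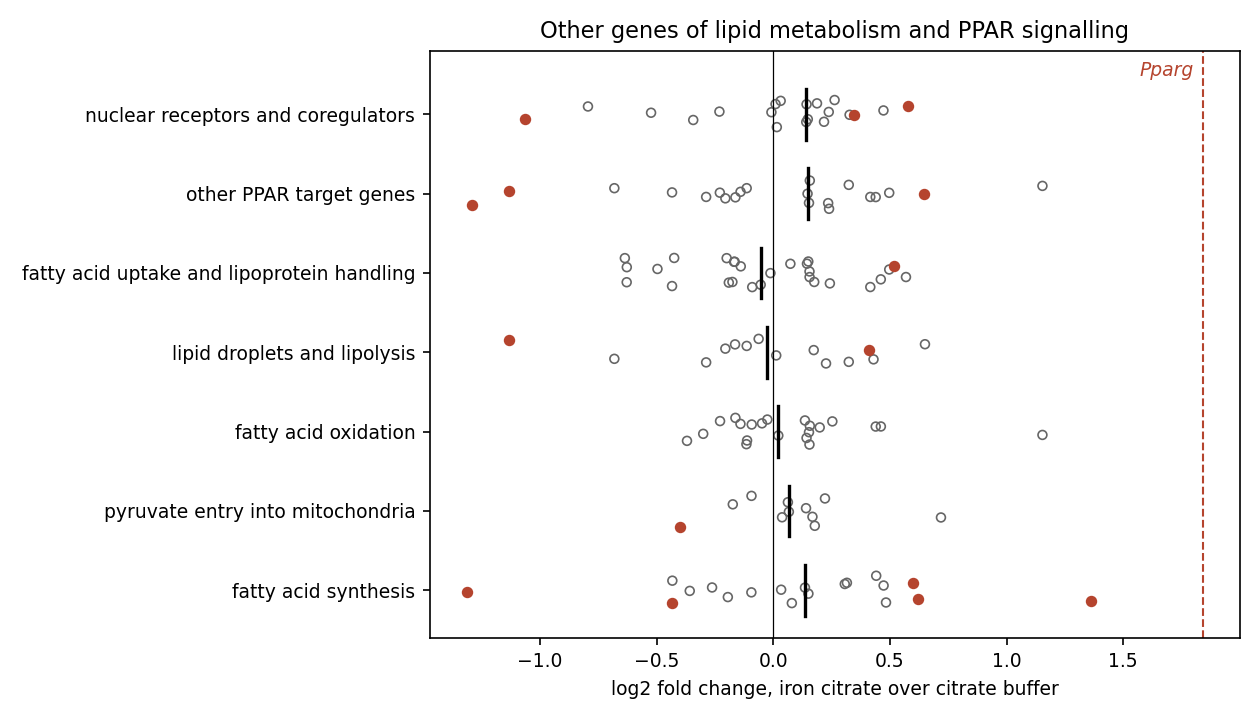
Log2 fold change (iron citrate over citrate buffer) of each tested gene of the 7 lists, without the 9 measured members. Filled red points have an unadjusted p under 0.05, black bars are list medians, and the dashed line is *Pparg* at 1.84. List medians lie between -0.05 and 0.15, and *Me1*, at 1.36, is the rightmost point.

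The targets whose profile over the 8 libraries came nearest to that of *Pparg* were not genes of fatty acid handling. Likeness was the root mean square difference of log2 CPM, each centred on its own mean, over 11677 other targets with a mean of at least 5 CPM. Profiles were not scaled to equal spread, so a target with a far smaller log2 fold change than *Pparg* could not come near it. The distance of the members thus repeats their gap in fold change and is no separate result on shared variation. The nearest 5 were *Mgst1* and *Gstm1*, a microsomal and a cytosolic glutathione S-transferase (differences of 0.196 and 0.203), *Impact*, a regulator of translation under stress (0.205), *Parp16*, an ADP-ribosyltransferase of the endoplasmic reticulum (0.228), and *Tbc1d23*, a protein of Golgi traffic (0.258). *Mgst1* stood at 109, 105, 125 and 107 CPM after iron citrate and at 20.1, 26.3, 23.1 and 34.9 CPM after citrate buffer. For *Gstm1* the values were 448, 464, 483 and 465 CPM after iron citrate and 79.9, 126, 112 and 141 CPM after citrate buffer. In both glutathione S-transferases, as in *Pparg*, citrate buffer replicate 4 was the highest of the buffer group. The same held for *Cd36*, *Fabp4*, *Plin2*, *Lpl*, *Cpt1a* and *Pdk4*, but not for *Rxra* and *Angptl4*. *Gstm1* belongs to a family of near-identical genes that can share reads, so its value is uncertain to that extent. The 5 nearest targets were picked for a profile like that of *Pparg*, so an order of libraries shared with it follows from that choice. Their difference between the groups is a description and no test of it is given. Among the members the smallest difference from *Pparg* was 0.627, for *Pdk4*, and the largest was 1.08, for *Fabp4*, over the 7 members with a mean of at least 5 CPM.

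**Figure D4:**
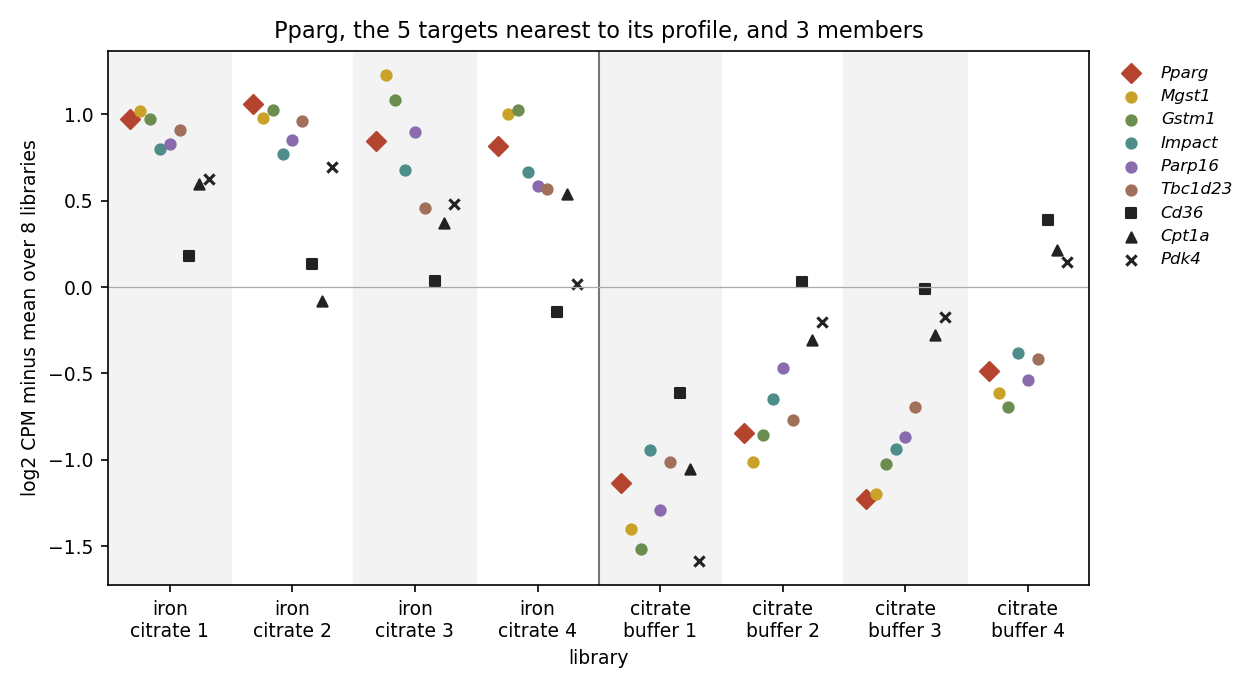
Log2 CPM (prior count 2) minus the mean over 8 libraries for *Pparg* (red diamonds), the 5 targets nearest to it (coloured circles) and *Cd36*, *Cpt1a* and *Pdk4* (black), with points offset sideways for clarity. *Pparg* and its 5 nearest targets lie above 0.45 in all iron citrate libraries and below -0.38 in all buffer libraries, while the black symbols come near or cross 0 in both groups.

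Markers of other cells that express members were measured beside them. None of the 6 marker lists had a gene called by edgeR in all 8 libraries with TMM factors. DESeq2 called *Vwf*, the von Willebrand factor of continuous endothelium, which was at 75.2 ± 48.2 CPM after iron citrate and 18.5 ± 10.6 CPM after citrate buffer (edgeR adjusted p = 0.239). The 8 adipocyte markers summed to between 34.2 and 48.4 CPM after iron citrate and between 52.3 and 78.9 CPM after citrate buffer. Within that sum, *Cidec* and *Cfd* were at 47.6 and 22.3 CPM in citrate buffer replicate 1. Citrate buffer replicates 2 to 4 summed to between 52.3 and 54.9 CPM, also above every iron citrate library. The median log2 fold change of the 3 tested adipocyte markers was -1.13, and -0.52 without citrate buffer replicate 1. At an unadjusted edgeR p under 0.05, 2 of these 3 were lower. *Lipe* averaged 24.3 ± 4.36 CPM after iron citrate and 24.1 ± 12.9 CPM after citrate buffer, and *Adipoq*, *Lep*, *Plin1* and *Slc2a4* were below 1 CPM in every library. The 12 Kupffer cell and macrophage markers summed to between 742 and 1238 CPM after iron citrate and between 838 and 1176 CPM after citrate buffer. The median log2 fold change of the 11 tested ones was 0.49, and 0.15 without citrate buffer replicate 1, beside 0.37 and 0.21 for the 8 other members. Among them, *Lyz2* averaged 499 ± 69.3 CPM after iron citrate and 655 ± 214 CPM after citrate buffer, and *Vsig4* 139 ± 61.5 and 84.0 ± 41.6 CPM. The 11 continuous endothelial markers summed to between 1169 and 1577 CPM after iron citrate and between 897 and 1606 CPM after citrate buffer, with *Plvap* at 523 ± 74.6 and 596 ± 188 CPM and *Emcn* at 281 ± 27.7 and 286 ± 52.9 CPM. Hepatocyte markers ranged from 388 to 821 CPM after iron citrate and from 473 to 942 CPM after citrate buffer, with *Alb* (319 ± 107 and 458 ± 152 CPM) and *Ahsg* (64.5 ± 27.6 and 67.8 ± 24.6 CPM). Stellate cell markers ranged from 245 to 353 CPM after iron citrate and from 156 to 308 CPM after citrate buffer, with *Hgf* (81.0 ± 11.6 and 63.3 ± 12.7 CPM) and *Rgs5* (81.6 ± 26.1 and 66.3 ± 11.6 CPM). In these 4 lists the group ranges overlapped. Median log2 fold changes were 0.26 for continuous endothelial, -0.24 for hepatocyte and 0.31 for stellate cell markers, and 0.27, -0.45 and 0.03 in the same order without citrate buffer replicate 1. The 12 sinusoidal endothelial markers summed to between 30724 and 35577 CPM after iron citrate and between 31083 and 39205 CPM in citrate buffer replicates 2 to 4, with citrate buffer replicate 1 at 20159 CPM. The part of these cells in the members' values was not tested.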

How the data were processed

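The deposited files hold raw counts per RefSeq target (23930 targets in each of 8 libraries). The submitters' processing notes name HTSeq 0.6.0 and DESeq2 1.18.1. Libraries were made with the Ion AmpliSeq mouse transcriptome kit from TRIzol-extracted RNA, per the labels' protocols. The aligner was not given in the sources used here, nor was the build. The design text names 5 libraries per group, and 4 per group were used here. HTSeq's summary lines, 2.15% to 4.60% of a file, were left out. Accessions were matched to symbols with the reference tables, and 1368 targets had no match.

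Iron citrate was compared with citrate buffer in edgeR 4.0.16 (R 4.3.3; filterByExpr, TMM, robust quasi-likelihood F-test, Benjamini-Hochberg over 14601 targets, threshold 0.05). Standard errors and 95% intervals came from the F statistic and its degrees of freedom. The members and gene lists were chosen with earlier results of these data known. Named genes are the members, every called gene of a list or its 2 of highest mean CPM, the 2 of highest mean CPM in each marker list and the 5 nearest to *Pparg*. *Ppara*, *Ppard*, *Ncoa2*, *Vegfb*, *Cidec*, *Pdk2*, *Me1*, *Elovl6*, *Stab2*, *Cfd*, *Vwf* and *Mcam* were chosen after their values were seen, except that *Cidec* is also among the marker genes. Alternatives were other scaling factors, DESeq2 1.42.0, limma-voom (limma 3.58.1) with sample weights, other filters, a replicate block and libraries left out. Library pairs within a group differed by more than sampling noise (chi-square per degree of freedom of at least 8.34). The labels name 1 mouse per library and no more, so a p-value here reflects library-to-library spread, which may be technical, and no molecular identifiers are described for the reads.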

Additional observations from a re-analysis of the deposited data

Results flagged for a closer look

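In 7 of 98 groups of 4 libraries, for the genes named, 1 library lay far from the other 3, by Dixon's criterion. Chance flags about 1 group in 20. Among the members this was *Plin2* in iron citrate replicate 2, at 215 CPM beside 295 to 307 CPM in the other 3.

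Citrate buffer replicate 1, the library that stands apart, was flagged for *Me1* (40.7 CPM, others 15.1 to 18.1 CPM), *Elovl5* (125 CPM, others 193 to 206 CPM) and the elongase *Elovl6* (4.00 CPM, others 1.33 to 1.51 CPM). *Gpihbp1* stood at 1050 CPM in iron citrate replicate 3, beside 720 to 749 CPM, and *Mgst1* at 125 CPM in the same library, beside 105 to 109 CPM. *Alb* stood at 479 CPM in iron citrate replicate 1, beside 253 to 281 CPM.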

How the results depend on the processing

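Over the 17 alternatives the log2 fold change of *Pparg* lay between 1.74 and 2.01, a description, since the same contrast chose the gene. No other member was called in any of them. *Angptl4* could not be fitted with a mean CPM of at least 5. The number of genes called, 81 in all libraries, was 352 with DESeq2, 289 with limma-voom, 281 without citrate buffer replicates 1 and 2, and 46 to 259 with 1 library left out. With the replicate block it was 43. The deviations of same-numbered libraries from their group means correlated at -0.0003, 0.18, 0.61 and -0.32 for replicates 1 to 4. Of the 4 numbers, 1 matched best with itself, and this was replicate 3.

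Calls within lists, 0 in all libraries with edgeR, came to 1 each with DESeq2 and limma-voom for nuclear receptors and for fatty acid synthesis. Limma-voom also gave 1 for fatty acid uptake and 1 for other PPAR targets, both *Gpihbp1*. Fatty acid synthesis had 1 with no low-count filter. Leaving out 1 library gave 0 to 1 for fatty acid synthesis and for pyruvate entry. Without citrate buffer replicates 1 and 2 there were 2 for fatty acid synthesis, 3 for other PPAR targets, and 1 each for uptake and for lipid droplets, of which *Me1* was higher and *Srebf1*, *Gpihbp1*, *Abcg1* and *Mgll* were lower.

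Genes whose log2 fold change turned sign were all uncalled. Library totals and upper-quartile factors moved the median of all targets to -0.11 and -0.12, and turned *Cd36* (-0.015, -0.031), *Clec4g* (-0.0033, -0.015), *Dld* (-0.042, -0.053), *Ehd3* (-0.024, -0.034), *Elovl5* (-0.055, -0.069), *Lipe* (-0.046, -0.067) and *Ncor1* (-0.116, -0.119). Limma-voom turned *Cd36* (-0.025), *Clec4g* (-0.034), *Ehd3* (-0.059), *Elovl5* (-0.080) and *Lipe* (-0.172). Without citrate buffer replicates 1 and 2 the values were -0.146 for *Cd36*, -0.114 for *Clec4g*, -0.121 for *Ehd3*, -0.088 for *Elovl5*, -0.410 for *Lipe* and -0.114 for *Nrp1*. *Lipe* and *Ncor1* also turned with DESeq2 (-0.012, -0.016) and relative log expression factors (-0.011, -0.016), and *Ncor1* with a mean CPM of at least 5 (-0.025). With 1 library left out, the ranges were -0.090 to 0.23 for *Cd36*, -0.11 to 0.21 for *Ncor1*, -0.11 to 0.10 for *Elovl5*, -0.047 to 0.20 for *Clec4g*, -0.084 to 0.15 for *Ehd3*, -0.13 to 0.067 for *Emcn*, -0.40 to 0.10 for *Ahsg* and -0.31 to 0.27 for *Lipe*. The cause was not tested.

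*Angptl4* rested on 6 to 33 reads per library and *Lpl* on 24 to 103.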
